A study of Mus musculus with 12 samples.

Results

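Promoter peaks open in 1 sort of brain cells and not called in the others were examined in mouse forebrain, in sorts of microglia, NeuN+ nuclei and Olig2+ nuclei. A member was a peak annotated to a promoter by the authors that overlapped, by 1 bp or more, no peak of either other table. There were 7708 such peaks among 47516 promoter peaks and 281974 peaks in all, and the 3 tables were kept apart. The microglia table held 3390 of them, which was 20.9% of its 16248 promoter peaks. The NeuN+ table held 2567 of 16398 (15.7%), and the Olig2+ table held 1751 of 14870 (11.8%).

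Open chromatin was measured by ATAC-seq, which uses a transposase to cut and tag DNA that is not packed away. All mice were C57BL/6 and 4 months old, and the groups were wild type (WT) and SgshKO, with 2 libraries of each genotype in each sort. Sgsh encodes N-sulfoglucosamine sulfohydrolase, a lysosomal enzyme that degrades heparan sulfate. The kind of Sgsh allele is not in the labels, nor is it stated whether the 2 libraries of a group came from separate mice, so p-values measure the spread between these libraries only. Microglia were sorted as live cells positive for CD11b and CX3CR1 with low CD45. The other sorts were lightly formaldehyde-fixed nuclei: NeuN+ nuclei lacked PU.1 and OLIG2, and Olig2+ nuclei lacked PU.1 and NEUN. The sorted cell type and the live-cell or fixed-nucleus preparation therefore cannot be told apart between microglia and the nuclei. OLIG2 marks both mature oligodendrocytes and their precursors, and NEUN marks most classes of neurons, so each nuclei sort is a mixture.

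A promoter is the stretch around the site where transcription of a gene starts. Many promoters of genes that every cell needs are rich in CG dinucleotides (CpG) and are open in all tissues, whereas genes of specialised cells often have CpG-poor promoters that are opened by factors of that lineage. PU.1, encoded by Spi1, is such a factor in microglia and macrophages and binds purine-rich ETS sequences. SOX10 is one in oligodendrocytes and binds SOX sequences. A gene can also have several start sites, each with its own promoter, used in different cells.

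The values below are tags at a peak per 10000000 tags of the library, as deposited. Each table measures only its own peaks in its own 4 libraries. A member is thus a statement about peak calls, and the tags at that position in the other sorts were not analysed here. Library totals were 10771659 to 11804222 tags in microglia and 14326703 to 19555924 in the nuclei. The share of tags inside peaks was 48.7% to 67.4% in microglia, highest in SgshKO replicate 1. It was 25.9% to 26.7% in WT and 21.2% to 21.5% in SgshKO NeuN+ libraries, and 30.9% to 31.8% in Olig2+ libraries. The start-site peak of Sgsh itself (chr11:119355381-119355624 in the microglia table) was shared by the 3 tables and was not a member. It held 184 and 162 tags in WT and 257 and 259.9 in SgshKO microglia, 34.6 and 22.6 against 9.07 and 13.3 in NeuN+ nuclei, and 65.9 and 74.15 against 60.9 and 69.1 in Olig2+ nuclei. Accessibility of a promoter does not check whether a gene was deleted.

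Sequences are shown for a few members of each set as examples of the letters searched for, and were chosen after the matches were seen. They are RefSeq promoter windows of the mouse assembly GRCm38.p6, 5′ to 3′ on the gene's strand, and each ends 1 base before the annotated start site. In the microglial windows the capitals mark ETS letters, GAGGAAGT or GGAAGT on either strand. C1qc and C1qb encode chains of the complement protein C1q, and Inpp5d encodes the phosphatase SHIP1, a brake on immune receptor signalling.
C1qc, chr4:136892915-136893114, minus strand: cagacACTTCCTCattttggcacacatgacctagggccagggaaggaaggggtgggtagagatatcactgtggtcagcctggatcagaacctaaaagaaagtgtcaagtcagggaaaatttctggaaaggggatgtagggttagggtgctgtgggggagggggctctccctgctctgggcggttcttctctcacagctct
Inpp5d, chr1:87620212-87620311, plus strand: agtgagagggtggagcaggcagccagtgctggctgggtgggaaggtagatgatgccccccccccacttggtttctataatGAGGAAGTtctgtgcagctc
C1qb, chr4:136886201-136886300, minus strand: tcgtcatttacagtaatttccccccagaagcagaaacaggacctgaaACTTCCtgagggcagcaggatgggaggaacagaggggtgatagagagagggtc

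In the Olig2+ windows the capitals mark SOX letters, ACAAAG or ACAATGG on either strand. Mag encodes the myelin-associated glycoprotein, Hapln2 a link protein of the extracellular matrix at nodes of Ranvier, and Mobp a protein of compact myelin. The Mobp stretch held 6 copies of ACAAAG on the strand opposite to the gene, between 243 and 120 bases before the start site, whereas Mag and Hapln2 held 1 match each.
Mag, chr7:30914923-30915022, minus strand: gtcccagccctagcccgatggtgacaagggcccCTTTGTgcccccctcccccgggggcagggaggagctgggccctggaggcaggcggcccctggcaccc
Hapln2, chr3:88027512-88027611, minus strand: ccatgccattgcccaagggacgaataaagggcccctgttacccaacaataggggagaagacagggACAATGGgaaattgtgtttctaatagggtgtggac
Mobp, chr9:120149492-120149741, plus strand: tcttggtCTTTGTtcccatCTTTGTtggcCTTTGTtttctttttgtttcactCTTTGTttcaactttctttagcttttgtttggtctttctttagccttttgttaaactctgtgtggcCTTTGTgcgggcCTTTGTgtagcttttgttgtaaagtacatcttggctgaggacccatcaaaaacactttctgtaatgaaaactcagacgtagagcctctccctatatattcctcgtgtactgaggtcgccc

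In the NeuN+ windows the capitals mark GGGCGG on either strand, the letters bound by Sp1, a general factor of CpG-rich promoters, which are more frequent in promoters shared by the 3 tables than in any one-sort set. Camk2b encodes a subunit of the synaptic kinase CaMKII, and its window held 3 matches between 57 and 45 bases before the start site. Npas4 encodes an activity-induced transcription factor of neurons, and its window held 1 match, 203 bases before the start site.
Camk2b, chr11:6065749-6065848, minus strand: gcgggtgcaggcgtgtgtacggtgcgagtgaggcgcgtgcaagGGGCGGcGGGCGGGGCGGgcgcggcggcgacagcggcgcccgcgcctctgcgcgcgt
Npas4, chr19:4989972-4990221, minus strand: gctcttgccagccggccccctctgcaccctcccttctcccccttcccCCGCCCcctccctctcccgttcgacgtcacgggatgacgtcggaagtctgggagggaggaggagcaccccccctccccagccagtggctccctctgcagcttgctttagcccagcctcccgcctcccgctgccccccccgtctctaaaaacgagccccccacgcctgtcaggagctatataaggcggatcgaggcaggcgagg

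Map7d2, which encodes a microtubule-associated protein, had a member at a different start site in each of the nuclei tables. The capitals mark every CG in the 150 bases before each start site. The upstream start site, open in NeuN+ nuclei, had 27, and the downstream one, open in Olig2+ nuclei, had 0. The first of the lines that follow is the NeuN+ promoter and the next is the Olig2+ promoter.
Map7d2, chrX:159414422-159414571, plus strand: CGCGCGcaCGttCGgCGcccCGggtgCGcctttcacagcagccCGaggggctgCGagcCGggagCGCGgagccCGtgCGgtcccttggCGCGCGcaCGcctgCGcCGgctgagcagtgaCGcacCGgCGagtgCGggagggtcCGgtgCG
Map7d2, chrX:159458975-159459124, plus strand: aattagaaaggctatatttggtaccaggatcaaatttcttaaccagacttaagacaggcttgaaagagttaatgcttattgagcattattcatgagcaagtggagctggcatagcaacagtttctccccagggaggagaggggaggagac

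Of the members, 1264 microglial (37.3%), 915 NeuN+ (35.6%) and 355 Olig2+ ones (20.3%) overlapped a RefSeq window of the same gene. After windows touched by a peak of another table had been left out and 1 window per gene kept, 959, 771 and 290 windows remained. Each window is 300 bases long, with 250 bases before and 50 after the start. The one-sort windows were poorer in G and C than the 8737 windows open in all 3 tables. Microglial windows had a median GC content of 54.7%, NeuN+ windows 57.7% and Olig2+ windows 54.0%, against 63.0% in windows open in all 3. The ratio of observed to expected CpG had medians of 0.377, 0.498 and 0.278 in the same order, against 0.824 in windows open in all 3 tables and 0.200 in the 14504 windows with no peak in any. A ratio of at least 0.6, a usual mark of a CpG island, was found in 28.6% of microglial, 39.3% of NeuN+ and 17.2% of Olig2+ one-sort windows. It was found in 85.2% of windows open in all 3 tables and in 35.8% of all 32851 windows. NeuN+ windows were thus the most CpG-rich of the one-sort sets and Olig2+ windows the poorest, and all 3 sets lay well below the shared promoters.

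The PU.1-type sequence GAGGAAGT was held by 11.4% of microglial one-sort windows, 1.56% of NeuN+ windows and 1.72% of Olig2+ windows, and by 3.20% of all windows. Among the 480 microglial windows above the median WT signal, 14.8% held it. The shorter ETS core GGAAGT, which is part of that sequence, was in 40.2% of microglial windows, 15.8% of NeuN+ windows, 17.9% of Olig2+ windows and 23.8% of all windows. GAAANNGAA, the letters of an interferon-stimulated response element (ISRE), was in 13.2% of microglial windows against 8.56% of all windows. The SOX letters ACAAAG were in 31.7% of Olig2+ windows, 16.3% of microglial and 16.2% of NeuN+ windows, and in 18.7% of all windows. The longer SOX letters ACAATGG were in 9.31% of Olig2+ windows against 3.66% of all windows, and in 2.40% and 2.08% of the microglial and NeuN+ sets. In windows with no peak in any table, ISRE letters were in 10.2%, ACAAAG in 23.6% and ACAATGG in 5.22%.

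The Sp1 letters GGGCGG were in 39.1%, 44.2% and 29.0% of the microglial, NeuN+ and Olig2+ sets, against 72.8% of windows open in all 3 tables. The RUNX letters TGTGGT were in 20.8% of microglial and 22.1% of Olig2+ windows but 13.2% of NeuN+ windows, against 16.8% of all windows. Windows with no peak in any table held them at 20.9%, near the microglial and Olig2+ sets, and windows open in all 3 tables at 10.9%. CAGATG, an E-box bound by OLIG and NEUROD proteins, was near its share of 17.2% in all windows in each set (16.8%, 18.4% and 18.3%). TATAAA was in 11.0%, 9.73% and 6.90% of the 3 sets, below the 13.6% of all windows and above the 5.30% of windows open in all 3 tables. The search covered both strands and the shares are descriptions, since base composition differs between the sets and a match is not a binding site.

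**Figure D1:**
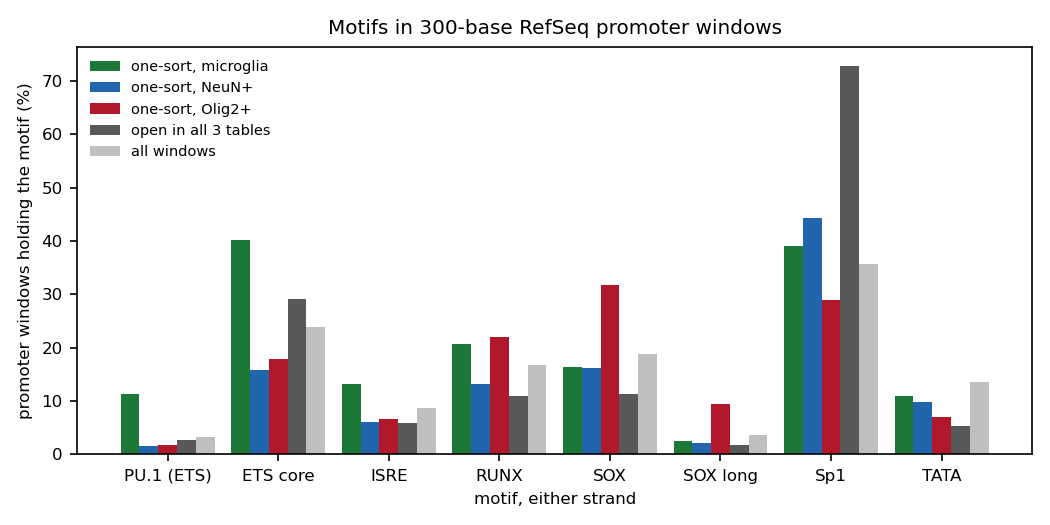
Share of 300-base RefSeq promoter windows (%) that hold each of 8 sequences on either strand, in the 3 one-sort sets, in windows open in all 3 tables and in all windows. PU.1-type letters stand out in the microglial set (11.4%), SOX letters in the Olig2+ set (31.7%), and Sp1 letters are highest in windows open in all 3 tables (72.8%).

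The members fell into those close to a peak of another sort and those far from any. The median distance to the nearest peak of either other table was 601 bp for microglial, 742 bp for NeuN+ and 357 bp for Olig2+ members. At least 500 bp separated 1807 microglial (53.3%), 1460 NeuN+ (56.9%) and 665 Olig2+ members (38.0%) from such a peak. Over 10000 bp separated 21.4%, 28.8% and 7.20% of members. At the edge of the rule, 41, 26 and 21 members lay within 10 bp of another table's peak, with median WT signals of 40.3, 12.6 and 14.955 tags. The 46, 34 and 20 promoter peaks that overlapped such a peak by 10 bp or less had medians of 28.5, 12.4 and 16.3 tags.

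**Figure D2:**
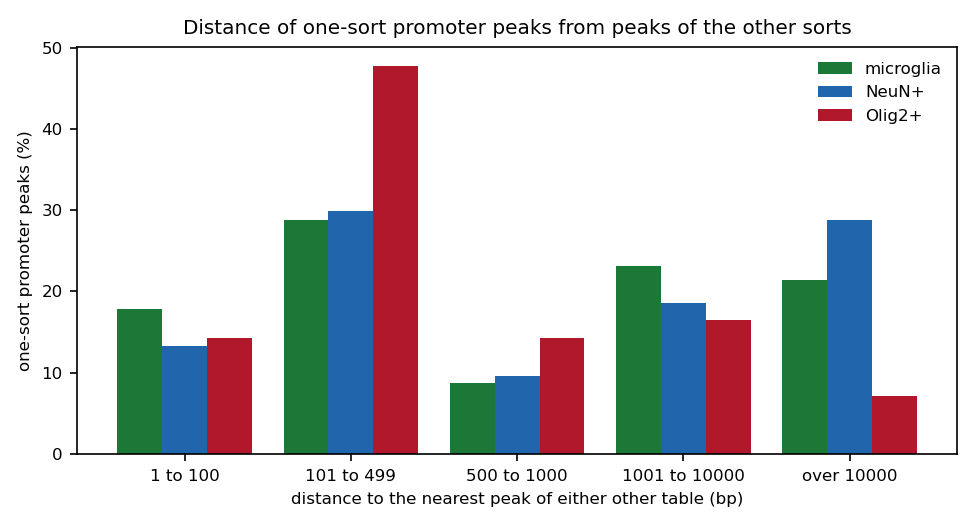
Distance in bp from each one-sort promoter peak to the nearest peak of either other table, in 5 classes, as a percentage of the members of each table. Olig2+ members are mostly less than 500 bp from another sort's peak, whereas 21.4% of microglial and 28.8% of NeuN+ members lie over 10000 bp away.

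Members also sat farther from start sites than promoter peaks shared with both other tables. Within 100 bp of the start site lay 33.4% of microglial, 35.7% of NeuN+ and 16.5% of Olig2+ members, against 63.7%, 69.5% and 70.0% of the shared peaks of the same tables. More than 500 bp upstream lay 28.6%, 30.6% and 51.3% of members, against 5.99%, 6.15% and 6.10% of shared peaks. Genes for non-coding RNA were nearest to 9.47%, 13.6% and 14.4% of members and to 4.33%, 4.08% and 4.11% of shared peaks. The nearest gene had no promoter peak in another table for 1677 microglial (49.5%), 1315 NeuN+ (51.2%) and 490 Olig2+ members (28.0%). These members belonged to 1351, 1104 and 397 genes whose promoter peaks were found in 1 table only. A peak is named here by its nearest gene. Where the annotated transcript could be paired with a gene, it belonged to another gene than the nearest for 9.09%, 7.62% and 8.16% of members.

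Member peaks were weaker than shared ones. Median WT signal was 29.5 tags at microglial, 12.7 at NeuN+ and 11.6 at Olig2+ members, against 80.4, 69.3 and 75.2 tags at promoter peaks shared with both other tables. Those medians rested on 33 to 37 reads per WT library in microglia and 22 or 23 in the nuclei. Members held 12.2% of the promoter tags of both WT microglia libraries and 10.3% and 8.60% of those of the SgshKO libraries, so that the genotypes did not overlap. In NeuN+ libraries the shares were 4.11% and 4.17% for WT and 4.65% and 4.64% for SgshKO, and in Olig2+ libraries 2.87% and 2.90% for WT and 2.65% and 2.64% for SgshKO. The share was lower in SgshKO in microglia and Olig2+ nuclei and higher in NeuN+ nuclei; it was not tested. In such bulk libraries, fewer cells of a type and less signal per cell cannot be told apart.

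The members of each table were checked against marker genes of brain cell types. Of 68 promoter peaks at microglial marker genes in the microglia table, 55 were members, from 40 of 49 genes. At those genes, 0 of 11 promoter peaks were members in NeuN+ nuclei and 0 of 8 in Olig2+ nuclei. Of 72 promoter peaks at neuronal marker genes in the NeuN+ table, 41 were members, against 7 of 26 in microglia and 1 of 24 in Olig2+ nuclei. Of 75 promoter peaks at oligodendrocyte marker genes in the Olig2+ table, 47 were members, against 1 of 21 in microglia and 1 of 23 in NeuN+ nuclei. At markers of oligodendrocyte precursors (OPC), members made up 12 of 23 promoter peaks in the Olig2+ table (52.2%), 5 of 9 in microglia (55.6%) and 1 of 12 in NeuN+ nuclei. The members of each sort thus included peaks at markers of the labelled cell type. In the microglia table, further cell types were represented by 8 members at astrocyte, 6 at lymphocyte, 4 at blood myeloid, 4 at endothelial and 2 at mural cell markers.

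In microglia, the 6 members with the most WT signal were at C1qb, Gna15, Rassf5, Ncf4, Limk1 and Cyth4. The C1qb peak, 117 bp upstream of the start site, held 841 and 808 tags in WT and 830 and 719 in SgshKO libraries. The C1qc peak, over the window printed above, held 493 and 452 tags in WT and 383 and 337 in SgshKO. The C1qa peak held 347 and 296.5 against 455 and 359. The genotypes overlapped at C1qb and did not at C1qc and C1qa, which lay on opposite sides, and at none of the 3 did the difference pass the test (log2 change -0.09, -0.39 and 0.33; limma adjusted p = 0.86, 0.37 and 0.47). The 3 genes are neighbours on chromosome 4, and each had its own one-sort peak. All 22 promoter peaks at TREM and complement genes in the microglia table were members.

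Gna15, which encodes a G-protein subunit of blood cells, had a peak with 811 and 755 tags in WT and 1063 and 817 in SgshKO. Rassf5, a regulator of leukocyte adhesion, had 782 and 667 against 964 and 745. Ncf4, which encodes a subunit of the phagocyte NADPH oxidase, had 654 and 576 against 1228 and 810, with the genotypes apart but not past the test (log2 change 0.70 ± 0.24 SE; adjusted p = 0.071). Limk1, a kinase of the actin cytoskeleton, had 589 and 570 against 1002 and 500.4, and Cyth4, a cytohesin, had 577 and 489 against 758 and 590.4. At all 5 of these peaks SgshKO replicate 1 held the highest value, and this was also the library with the largest share of its tags in peaks (67.4%); its part in the differences was not tested. Under loess normalization Gna15 and Rassf5 turned and passed the threshold in the lower direction (log2 change -0.45 at each; adjusted p = 0.047 and 0.049), and under quantile normalization they turned without passing (-0.38 and -0.42; adjusted p = 0.074 and 0.053). Limk1 and Cyth4 also turned under both, without passing.

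Tmem119, a membrane protein that distinguishes microglia from blood macrophages, had a member with 440 and 412 tags in WT and 824 and 484 in SgshKO. Spi1, the gene of PU.1, had 386 and 349 against 419 and 321. Inpp5d had 332 and 271 against 306 and 239, and Lyn, a kinase of immune receptors, had 296 and 241 against 293 and 220. Runx1, a transcription factor of blood and microglia, had 5 members around a pair of start sites, the strongest with 309 and 242 tags in WT and 205 and 207 in SgshKO. These peaks had log2 changes between -0.41 and 0.57, and no change at them passed the test. Laptm5, a lysosomal membrane protein of blood cells, had 299.9 and 242 against 428 and 369, with the genotypes apart and no call (adjusted p = 0.19). The sign at Spi1, Inpp5d and Lyn turned with some alternatives.

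**Figure D3:**
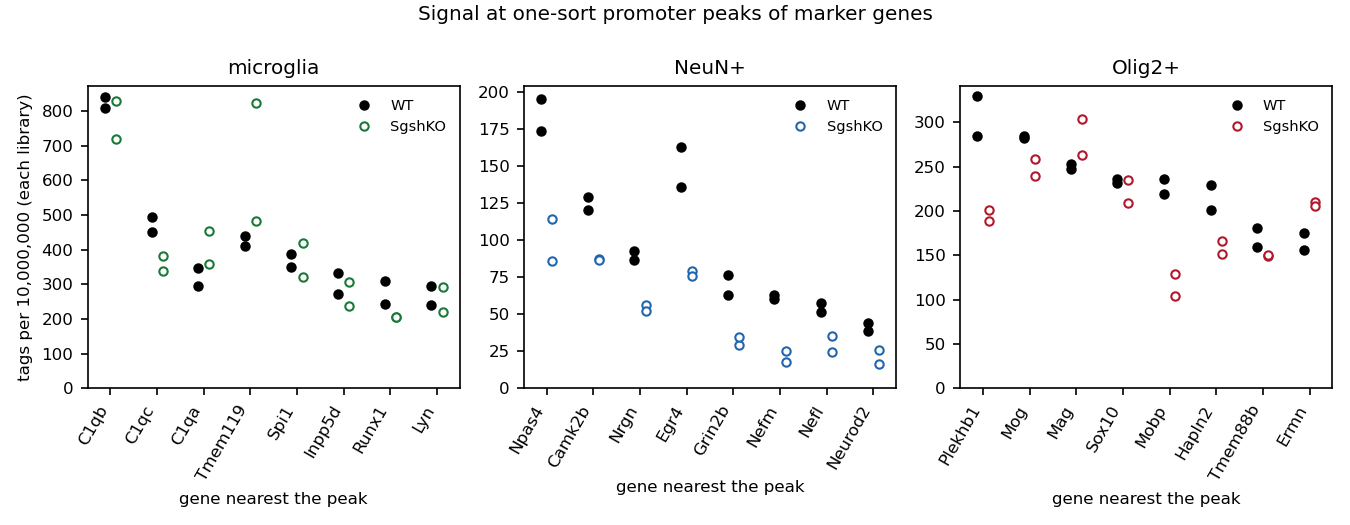
Tags per 10000000 at one-sort promoter peaks of 8 genes in each sort, for each WT (filled) and SgshKO (open) library. In microglia the genotypes overlap at C1qb, Spi1, Inpp5d and Lyn. They are apart at C1qc, C1qa, Tmem119 and Runx1, where no change passed the test. In NeuN+ nuclei the SgshKO points lie below the WT points, and in Olig2+ nuclei Plekhb1, Mobp and Hapln2 are lower and Ermn is higher in SgshKO.

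The comparison of SgshKO with WT was made by limma within each table, over all its peaks, with Benjamini-Hochberg adjustment and a threshold of 0.05. In microglia 169 of the 3390 members passed (4.99%), against 7.37% of all 91770 peaks. Of these, 102 were higher in SgshKO (3.01% of members, against 5.05% of all peaks) and 67 lower (1.98% against 2.33%). The median log2 change of the members was -0.10, beside -0.08 over all peaks. Promoter peaks shared with both other tables had a median of 0.31, and 16.9% of them passed, 1721 higher and 56 lower. The one-sort promoter peaks therefore lay with the bulk of the microglial table and below the shared promoters in this contrast. The count depended on single libraries. With WT replicate 1 or 2 left out it was 19 or 2, and with SgshKO replicate 1 or 2 left out, 530 or 487. Of the 28 called members named here, 0 kept their call without WT replicate 2, 7 without WT replicate 1, and 28 and 25 without SgshKO replicates 1 and 2. The split depended on the scaling, with 102 higher and 67 lower as deposited but 112 higher and 297 lower when libraries were scaled to their tags in peaks, which moved the median of all peaks to -0.28.

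**Figure D4:**
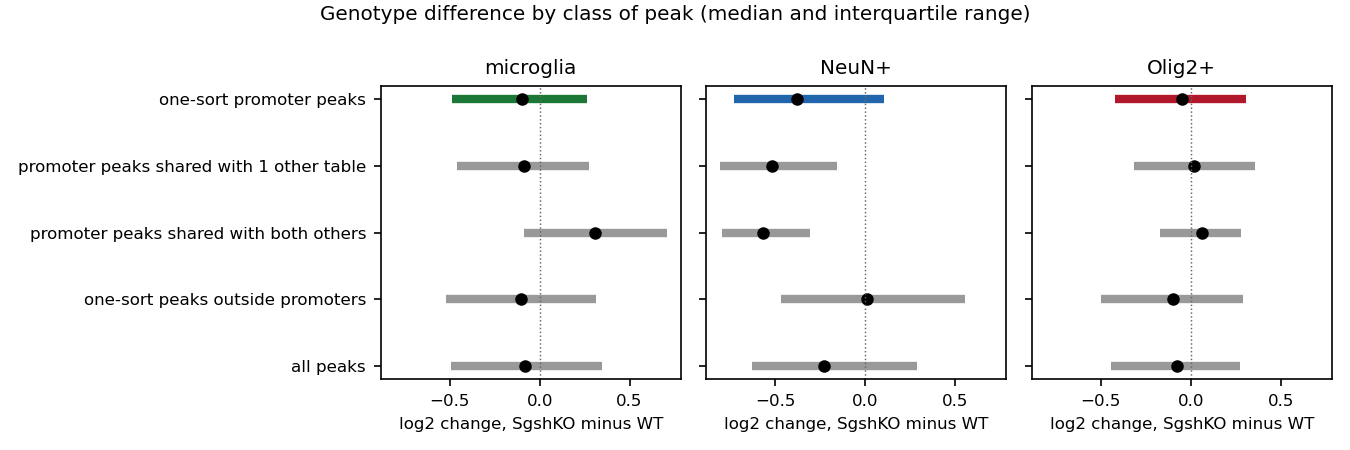
Median (point) and interquartile range (bar) of the log2 change, SgshKO minus WT, for 5 classes of peaks in each table. Shared promoters lie above the one-sort promoter peaks in microglia (0.31 against -0.10) and below them in NeuN+ nuclei (-0.57 against -0.38).

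Among the microglial members that were higher in SgshKO, Apoe, which encodes the lipid carrier apolipoprotein E, had a peak 534 bp upstream of its start site (chr7:19699610-19699835). It held 36.3 and 1.69 tags in WT and 50.2 and 48.3 in SgshKO libraries, and rose by 2.33 ± 0.61 (SE) on the log2 scale (adjusted p = 0.013). The WT libraries differed more from each other than WT replicate 1 did from the SgshKO libraries, and the groups did not overlap. Tarm1, which encodes an activating receptor of myeloid cells, held 15.6 and 5.93 tags in WT and 57.1 and 39.0 in SgshKO, and rose by 2.17 ± 0.45 (adjusted p = 0.0018). Tmem221 held 61.4 and 55.1 against 186 and 216 (chr8:71558917-71559135; log2 change 1.77 ± 0.30, adjusted p = 0.00015). Sirpa, the receptor that reads the CD47 signal against phagocytosis, held 206 and 202 against 462 and 454 (chr2:129591972-129592252; log2 change 1.17 ± 0.26, adjusted p = 0.0031). Ripor2, which encodes a regulator of RhoA, rose by 1.99 at a peak 918 bp upstream, from 13.8 and 9.32 tags to 51.1 and 45.5. Maz, a zinc finger factor, rose by 1.85, from 15.6 and 17.8 to 51.1 and 77.05, at a peak 111 bp from one of another table. At Tmem221 and Sirpa both SgshKO libraries held more than 2 times the tags of either WT library, and the libraries of a genotype lay close together. The nearest peak of another table was 2144 bp from the Tmem221 peak, 197 bp from that of Sirpa and 337 bp from that of Apoe.

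At complement, TREM and interleukin receptor genes, a few members passed the test. The microglial counts below stand beside 4.99% called over all microglial members and 7.37% over all peaks. Above 0 lay 42.2% of all microglial members. C3, the central complement protein, went from 7.78 and 3.39 tags in WT to 33.8 and 20.4 in SgshKO (log2 change 2.14 ± 0.50, adjusted p = 0.0051). Trem1, an amplifying receptor of myeloid cells, went from 27.65 and 36.4 to 89.2 and 61.3 (1.19 ± 0.36, adjusted p = 0.033). C3 and Trem1 were the only 2 of the 22 TREM and complement members that passed the test by limma as deposited, and the median of the 22 was 0.13. That median was -0.08, -0.06 and -0.04 under scaling to tags in peaks, quantile and loess normalization. Il10rb, a chain of the interleukin-10 receptor, went from 5.19 and 4.24 to 35.5 and 16.7 (log2 change 2.16, adjusted p = 0.0049), at a peak 296 bp from one of another table. Il12rb2 and Il2rg, chains of the interleukin-12 and interleukin-2 receptors, rose by 0.96 and 1.65 on the log2 scale, whereas Il1rap, the co-receptor for interleukin-1, fell by 1.66. These 4 were the called members among 25 at interleukins and their receptors, whose median was -0.26. That median was -0.45 with scaling to tags in peaks, and -0.05 and -0.03 under quantile and loess normalization. With the weakest 25% of peaks left out it was 0.08.

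Genes of the disease-associated microglia (DAM) state held 25 members of 40 promoter peaks, with a median log2 change of 0.17, which was -0.03 when scaled to tags in peaks. Apoe and Ccl3 rose and Postn fell, and the other 22 did not pass the test. Ccl3, a chemokine released by activated microglia, went from 174 and 139.8 tags in WT to 300.4 and 263 in SgshKO (0.85 ± 0.27, adjusted p = 0.049). Of 24 members at chemokine genes, Ccl3 rose and Ccl17 and Cx3cr1 fell. Among 13 members at interferon-stimulated genes 0 passed in limma, 6 had an unadjusted p under 0.05, and 10 lay above 0 with a median of 0.65. EdgeR called 5 of them higher, DESeq2 called 0, and limma without SgshKO replicate 2 called 7 higher and 1 lower. Ifi27l2a, the one with the smallest p, held 19.9 and 14.4 tags in WT and 51.1 and 33.4 in SgshKO (adjusted p = 0.058).

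Microglial marker genes gave 2 called members of 55, both lower. The Cx3cr1 peak 602 bp upstream of the start site held 97.7 and 69.5 tags in WT and 47.6 and 30.6 in SgshKO (log2 change -1.09 ± 0.35, adjusted p = 0.049); the gene encodes the fractalkine receptor. Gpr34, a lysophospholipid receptor of microglia, held 19.0 and 18.6 against 6.93 and 3.71 (-1.70 ± 0.50, adjusted p = 0.029). The median over the 55 was -0.18, and the summed tags of the 55 overlapped between genotypes, with 8776 and 7489 in WT and 8898 and 7070.4 in SgshKO. Under scaling to tags in peaks 10 of the 55 were called lower and 0 higher, under quantile normalization 13 and 0, and by edgeR 6 and 3.

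Upk1b, a uroplakin of epithelium, had the largest decrease of the microglial members named here. It held 75.2 and 83.9 tags in WT and 25.1 and 13 in SgshKO (log2 change -2.07 ± 0.38, adjusted p = 0.00048). Slc2a10, a glucose transporter gene, fell by 1.66, and Efnb2, Slco2b1 and Notch4, which encode an ephrin, an organic anion transporter and a Notch receptor, fell by 1.33, 1.32 and 1.32. The Efnb2 and Slc2a10 peaks lay 20 and 266 bp from a peak of another table, and those of Slco2b1 and Notch4 1385 and 18707 bp. Clustered protocadherins, adhesion molecules best known from neurons, had 15 members of 16 promoter peaks, all 15 below 0 with a median of -1.03. Of all microglial members below the median signal of the members, 32.3% lay above 0, with a median of -0.28. Only 4 of the 15 protocadherin members passed the test, at a median WT signal of 17.6 tags, while 9 had an unadjusted p under 0.05. Under loess normalization 0 passed and 2 lay above 0, and 0 passed by DESeq2 or without either WT library. The 7 members at neuronal markers summed to 143 and 114 tags in WT and 90.9 and 68.7 in SgshKO. All 7 lay below 0, and the one with the smallest p was at Mef2c (18.15 and 16.1 tags against 5.19 and 7.43, not called). The 4 members at blood myeloid markers summed to 68.3 and 54.2 against 108 and 71.5. The 4 at endothelial markers summed to 166 and 155 tags in WT and 146 and 99.3 in SgshKO, and the 2 at mural cell markers to 120.1 and 100.8 against 83.1 and 51.1. These 4 sums were apart between genotypes, lower in SgshKO except at blood myeloid markers. The 1 member at oligodendrocyte markers, at Trf, was also apart and was higher in SgshKO (83.0 and 72.0 tags against 87.4 and 84.5). Sums at astrocyte, OPC and lymphocyte markers overlapped. The share of all members that were apart between genotypes was not counted. The part of these marker members in the differences above was not tested.

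In NeuN+ nuclei, 740 of the 2567 members passed the test (28.8%), against 29.8% of all 107627 peaks. Of these 144 were higher in SgshKO (5.61%, against 10.2% of all peaks) and 596 lower (23.2%, against 19.6%). The median log2 change was -0.38 over the members and -0.23 over all peaks. Promoter peaks shared with both other tables had a median of -0.57, with 61.6% called, whereas one-sort peaks outside promoters had a median of 0.01. Members within 100 bp of a start site gave 26 higher and 322 lower of 916, and those more than 500 bp upstream gave 71 higher and 87 lower of 786. The direction depended on the scaling. With libraries scaled to their tags in peaks, the median of all peaks moved from -0.23 to 0.05 and the members split into 285 higher and 277 lower, while the difference between the members' median and that of all peaks was -0.14 as deposited and between -0.14 and -0.17 under the other scalings. The count was 219 and 292 without WT replicate 1 or 2. It was 0 without either SgshKO replicate in limma, where 813 and 763 members had an unadjusted p under 0.05, so that each NeuN+ call below was lost there. DESeq2 called 67.

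The 6 members with the most WT signal in NeuN+ nuclei were at Npas4, Iqsec3, Dmtn, Egr4, Ndst3 and Rims4. Npas4 held 195 and 173 tags in WT and 114 and 85.7 in SgshKO (chr19:4989979-4990223), and fell by 0.89 ± 0.13 on the log2 scale (adjusted p = 7.7e-05). Egr4, an activity-induced zinc finger factor, held 163 and 136 against 78.9 and 75.55 (log2 change -0.93). Iqsec3, an exchange factor of inhibitory synapses, held 179 and 181 against 94.9 and 95.9 (-0.91). Ndst3, which encodes an enzyme that sulfates heparan sulfate, held 143 and 141 against 59.3 and 67.9 (-1.15 ± 0.13, adjusted p = 6.4e-06). Dmtn, an actin-bundling protein, had 7 members in this table, the strongest with 152 and 157 against 83.1 and 73.65 (-0.97). Rims4, of the presynaptic RIM family, held 125 and 126.5 against 73.3 and 65.4 (-0.85). At each of these peaks both SgshKO libraries lay below both WT libraries, and replicates differed by less than the genotypes did. The Iqsec3 and Dmtn peaks lay 204 and 292 bp from a peak of another table, and the others at least 681 bp.

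Of 41 members at neuronal marker genes 15 were lower and 0 higher, with a median of -0.55. That was near the median of all promoter peaks in NeuN+ nuclei (-0.54, with 50.1% called lower). Members within 100 bp of a start site also had a median of -0.55, with 35.2% lower, and 23.2% of all members were lower. With scaling to tags in peaks 8 of the 41 were lower and 2 higher, and their median minus that of all peaks was -0.33, beside -0.32 as deposited. Over the 41, the tags summed to 1197.5 and 1136 in WT, above 750.4 and 766 in SgshKO. Nefm, the medium chain of neurofilaments, held 62.9 and 60.4 tags in WT and 17.45 and 24.8 in SgshKO (-1.52 ± 0.20, adjusted p = 3.6e-05). Camk2a, the alpha subunit of CaMKII, held 107 and 106 against 45.4 and 42.5 at its strongest peak (-1.26 ± 0.14, adjusted p = 7.9e-06). Camk2b, at the GC-rich window printed above, held 120.1 and 129 against 87.25 and 86.35 (-0.51 ± 0.12, adjusted p = 0.0039), and its change became 0.04 and 0.01 under quantile and loess normalization. Nefl, Nrgn, Neurod2, Neurod1, Stmn2 and Syt1 fell by 0.88, 0.72, 0.97, 0.91, 0.79 and 0.66, and Rbfox3, the gene of NeuN itself, by 0.64 (adjusted p = 0.039). Bdnf, which has several start sites, had 5 members. The strongest, 7 bp from a start site, held 52.7 and 41.8 against 34.2 and 37.5 and did not pass (adjusted p = 0.12), while the one 518 bp upstream of another start site fell by 1.03 (adjusted p = 0.031).

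Called members at receptor and potassium channel genes of neurons were lower as deposited. The counts below stand beside 23.2% lower and 5.61% higher over all NeuN+ members, and 29.8% called over all peaks. Of members within 100 bp of a start site 35.2% were lower, and of all NeuN+ promoter peaks 50.1%. Above 0 lay 30.0% of all NeuN+ members and 13.8% of all NeuN+ promoter peaks. Grin2b, a subunit of NMDA receptors, held 62.9 and 76.2 tags in WT and 29.3 and 34.3 in SgshKO (-1.10 ± 0.17, adjusted p = 0.0002), and lay 265545 bp from the nearest peak of another table. Of 11 members at glutamate receptor genes all 11 lay below 0 and 5 passed, among them Grin2b, Grm2, Grik3, and Grin1os, an antisense transcript whose signal cannot be told apart from that of its host. Of 13 members at GABA and glycine receptor genes 4 were lower, among them Gabra2, Gabra3 and Gabra5, of alpha subunits (log2 changes -0.58, -0.98 and -0.86). With scaling to tags in peaks this became 1 lower and 1 higher. Of 42 members at potassium channel genes 15 were lower and 0 higher. Among these, Kcnd2, Kcnk2 and Kcnk12 fell by 1.15, 1.14 and 1.01. Potassium channels split into 7 lower and 2 higher when scaled to tags in peaks.

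Genes of synaptic vesicles gave 6 lower and 1 higher of 18 members as deposited, and 2 and 2 when scaled to tags in peaks. The counts of this paragraph stand beside 23.2% lower and 5.61% higher over all NeuN+ members as deposited. Of members within 100 bp of a start site 35.2% were lower, and of all NeuN+ promoter peaks 50.1%. Cplx1, a complexin that clamps vesicle fusion, held 105 and 96.0 tags in WT and 50.3 and 55.2 in SgshKO (-0.92 ± 0.14, adjusted p = 0.00015), whereas Sv2b, a vesicle glycoprotein, rose from 5.10 and 5.65 to 16.05 and 13.3. Slc6a17, a vesicular amino acid transporter, fell by 1.00. Voltage-gated sodium and calcium channel genes gave 2 higher (Cacna1c and Cacna1b) and 1 lower (Cacna1i) of 15. Among neuropeptide genes, 4 of 8 members were lower, at Cbln2 (2 peaks), Cck and Scg2, and Grp was higher. This became 2 lower and 1 higher when scaled to tags in peaks, and DESeq2 called 0. MicroRNA genes held 119 members, of which 33 were lower and 9 higher, or 12 and 9 when scaled to tags in peaks. The Mir124a-1hg peak, at the host of a microRNA of neurons, held 81.0 and 88.7 against 42.6 and 48.25 (-0.89 ± 0.15, adjusted p = 0.00037), and Mir124a-3 held 59.5 and 58.7 against 34.2 and 31.1 (-0.84 ± 0.17, adjusted p = 0.0016).

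Of the 144 NeuN+ members that rose, 94 lay below the median signal of the members, averaged over the 4 libraries, and 50 at or above it. Ces1a, a carboxylesterase gene, held 3.40 and 5.65 tags in WT and 20.2 and 22.9 in SgshKO (2.06 ± 0.32, adjusted p = 0.00015). Tgfbr1, a receptor for TGF-beta, held 7.93 and 9.04 against 29.3 and 25.4 at a peak 979 bp upstream (1.58 ± 0.26, adjusted p = 0.00029). Mettl21e, A830036E02Rik and C2cd2l rose by 1.46, 1.40 and 1.39. Chrna4, a nicotinic receptor subunit, showed the largest decrease among the named members, from 18.7 and 21.5 to 2.79 and 6.35 (-1.99 ± 0.34, adjusted p = 0.00042). Gm13205, Dnah11, Sowahb and Nrp1 fell by 1.64, 1.58, 1.57 and 1.55. The Gm13205 and Nrp1 peaks lay 58 and 275 bp from a peak of another table, and those of Dnah11 and Sowahb 24388 and 47136 bp.

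**Figure D5:**
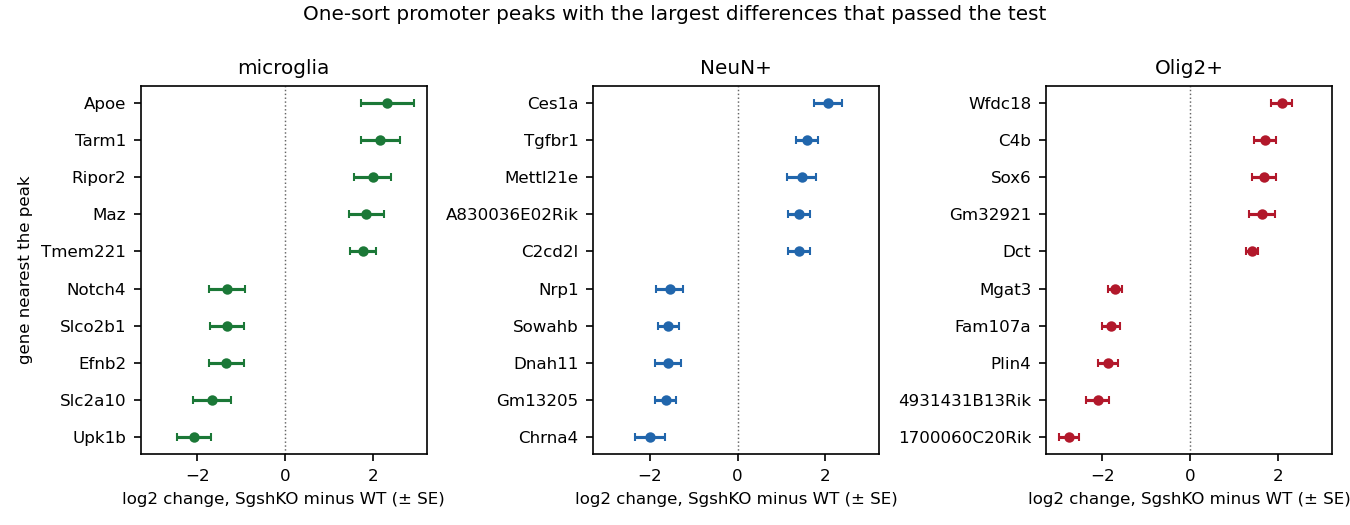
Log2 change, SgshKO minus WT, with its SE for the largest increases and decreases among one-sort promoter peaks that passed the test. Each had at least the median signal of the members, averaged over the 4 libraries of both genotypes. Some increases were therefore weak in WT, such as Ces1a with a mean of 4.5 tags. The values reach 2.33 in microglia (Apoe), 2.06 in NeuN+ (Ces1a) and -2.75 in Olig2+ nuclei (1700060C20Rik).

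In Olig2+ nuclei, 287 of the 1751 members passed (16.4%), against 19.8% of all 82577 peaks. Of these 117 were higher in SgshKO (6.68%, against 8.17% of all peaks) and 170 lower (9.71%, against 11.7%). The median log2 change was -0.05, beside -0.07 over all peaks and 0.06 over promoter peaks shared with both other tables. The share of calls that were higher was 40.8% as deposited, and 42.8% to 57.7% under the other scalings. Leaving out WT replicate 1 or 2 left 95 calls each, leaving out an SgshKO replicate left 275 or 280, and DESeq2 called 52. Of the 36 called members named here, 23 and 22 kept their call without WT replicates 1 and 2, and 29 and 33 without SgshKO replicates 1 and 2.

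The 6 members with the most WT signal in Olig2+ nuclei were at Mbp, Ppp2r2cos, Gm33727, Sh3tc2, Cmtm5 and Mir7662. The Mbp peak, 81 bp upstream of the start site of the gene of myelin basic protein, held 532 and 543 tags in WT and 370.1 and 402 in SgshKO (log2 change -0.48 ± 0.06, adjusted p = 3.8e-06). Mobp had 2 members. The one 365 bp upstream held 236 and 219 against 129 and 104 (-0.97 ± 0.11, adjusted p = 1.5e-07). The one at the printed window with the 6 SOX matches held 188 and 177 against 95.9 and 107 (-0.84 ± 0.11, adjusted p = 2.4e-06). Cmtm5, a MARVEL-domain protein, held 438 and 417 against 318 and 334 (-0.39 ± 0.07, adjusted p = 0.0002). Plekhb1, a membrane-associated protein of myelinating cells and photoreceptors, held 329.9 and 284 against 202 and 189 (-0.65 ± 0.09, adjusted p = 4.3e-06). At these 5 peaks the genotypes were apart by more than the replicates differed. Hapln2, whose window is printed above, also fell, from 201 and 229 tags in WT to 152 and 166 in SgshKO (-0.43 ± 0.10, adjusted p = 0.0025).

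The other 4 of the 6 had smaller differences than Mbp and Cmtm5. Sh3tc2, a gene needed for peripheral myelin, held 454 and 455 tags in WT and 526 and 519 in SgshKO (0.20 ± 0.06, adjusted p = 0.02), and the uncharacterised gene Gm33727 held 457 and 488 against 507 and 584 (0.20, adjusted p = 0.03). Ppp2r2cos, a non-coding transcript, held 505 and 474 against 422 and 443, and Mir7662 held 398 and 377 against 334 and 350.3; neither passed (adjusted p = 0.051 and 0.071).

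Not all myelin genes followed Mbp and Mobp. Mog, the oligodendrocyte glycoprotein, held 285 and 283 tags in WT and 239.8 and 259 in SgshKO (-0.19, adjusted p = 0.096). Mag held 248 and 253 against 263 and 304 at the printed window (0.18, adjusted p = 0.14), while another, weaker Mag peak fell by 0.69 (adjusted p = 0.049). Sox10 held 236 and 232 against 235 and 209 (-0.08, adjusted p = 0.58). Ermn, a late protein of myelinating cells, rose from 156 and 175 to 209.7 and 205 (0.33 ± 0.10, adjusted p = 0.017). Nkx2-2, a transcription factor of the lineage, rose from 33.2 and 34.3 to 59.0 and 55.8 (0.75 ± 0.18, adjusted p = 0.0033). Tmem88b, a membrane protein gene, at 159 and 181 against 149 and 150.2, did not pass. Weaker peaks at Aspa and Gal3st1, genes of an acetyl-aspartate hydrolase and a sulfatide-making enzyme, fell by 0.75 and 0.67. In all, 10 of 47 members at oligodendrocyte marker genes were lower and 2 higher, with a median of -0.14. Over all Olig2+ members, 9.71% were lower and 6.68% higher. The tags of the 47 summed to 4157 and 4145.5 in WT, above 3509 and 3615 in SgshKO. By edgeR the counts among the 47 were 7 lower and 5 higher.

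Members at genes of oligodendrocyte precursors lay mostly above 0. Of 12 members 3 passed, all higher, and 11 lay above 0 with a median of 0.27. Over all Olig2+ members, 46.7% lay above 0 with a median of -0.05, and 6.68% were called higher. Sox6, a factor that keeps precursors immature, had 2 members. The one 102 bp upstream rose from 7.26 and 13.3 tags to 34.4 and 33.2 (1.68 ± 0.27, adjusted p = 5e-05), and the one 727 bp upstream from 13.5 and 14.3 to 32.0 and 42.5 (1.35 ± 0.24, adjusted p = 0.00016). Susd5 rose from 9.34 and 4.09 to 20.3 and 14.6 (1.33 ± 0.34, adjusted p = 0.0063). Over the 12, the tags summed to 372 and 354 in WT, below 449 and 470 in SgshKO. The difference between the precursor and the oligodendrocyte lists was not tested.

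C4b, a complement gene, had its promoter member in Olig2+ nuclei (chr17:34743833-34744050). It held 15.6 and 11.25 tags in WT and 59.6 and 34.6 in SgshKO, and rose by 1.71 ± 0.25 (adjusted p = 1.4e-05). Wfdc18, a gene of a secreted protein, rose from 9.85 and 12.3 to 57.2 and 43.2 (2.08 ± 0.24, adjusted p = 2e-07). Gm32921, which is uncharacterised, rose by 1.64. Dct, dopachrome tautomerase of pigment cells, rose from 51.9 and 49.6 to 137 and 134 (1.40 ± 0.13, adjusted p = 9.2e-09). Among decreases, 1700060C20Rik fell from 64.8 and 57.8 to 9.22 and 7.31 (-2.75 ± 0.23, adjusted p = 8.8e-10), Fam107a, an actin-associated protein, from 62.2 and 60.85 to 17.2 and 16.6 (-1.80). 4931431B13Rik fell by 2.11. Mgat3, a glycosyltransferase, fell from 90.8 and 113 to 30.1 and 30.6 (-1.71). Plin4, a lipid droplet protein, fell by 1.88 and lay 63 bp from a peak of another table. At these peaks both SgshKO libraries lay on 1 side of both WT libraries.

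At genes of the lysosome, members made up 17 of 84 promoter peaks in the microglia table (20.2%), close to the 20.9% of all its promoter peaks. They made up 5 of 74 in the NeuN+ table (6.76%, against 15.7%) and 11 of 85 in the Olig2+ table (12.9%, against 11.8%). In microglia 0 of the 17 passed in limma and 3 had an unadjusted p under 0.05, edgeR called 4 higher and DESeq2 called 0. The smallest p was at Ctsc, cathepsin C, with 242 and 229 tags in WT and 377 and 371 in SgshKO (log2 change 0.67, adjusted p = 0.11). In Olig2+ nuclei Cd63 rose from 2.59 and 5.62 to 11.1 and 12.6, and Atp6v1g1, Atp6v1e1 and Gnptg fell by 0.84, 0.94 and 1.22. MicroRNA genes had 76 members in Olig2+ nuclei, of which 9 were higher and 2 lower. Over all Olig2+ members, 6.68% were higher and 9.71% lower. Mir1897 rose from 66.9 and 73.6 to 143 and 140.2 (1.00 ± 0.13, adjusted p = 1e-06), and Mir219a-1, a microRNA of oligodendrocyte maturation, by 0.78 (adjusted p = 0.042).

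Some genes had members in more than one table, at different start sites. Of 6249 genes with a member, 364 had members in 2 tables and 13 in 3, and for 127 of them members of different tables were at least 1000 bp apart. The examples were chosen after their values were seen. At Map7d2 the upstream CpG-rich start site was a member in NeuN+ nuclei and the CpG-free one, 44333 bp away, in Olig2+ nuclei. The upstream peak held 103 and 85.8 tags in WT and 39.8 and 43.2 in SgshKO NeuN+ libraries (-1.16 ± 0.15, adjusted p = 3.7e-05), and the downstream peak 122 and 106 against 36.3 and 33.2 in Olig2+ libraries (-1.68 ± 0.15, adjusted p = 3.6e-09). Both alternative promoters of Map7d2 were lower in SgshKO, each in its own sort.

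Ptprd, a receptor phosphatase that organises synapses, had a NeuN+ member with 93.5 and 97.7 tags in WT and 48.2 and 47.6 in SgshKO and an Olig2+ member 1867424 bp away with 93.4 and 89.5 against 71.9 and 65.1 (log2 changes -0.98 and -0.41; adjusted p = 8.6e-05 and 0.035). Galnt9, an enzyme that starts O-linked sugar chains, had a NeuN+ member at 1 start site, with 88.9 and 86.4 against 39.1 and 40.6 (-1.12 ± 0.15, adjusted p = 4.3e-05). At another start site it had a microglial member with 137 and 113 against 340.2 and 238 (1.19 ± 0.28, adjusted p = 0.0062). The Galnt9 promoters moved in opposite directions in the pair of sorts, and the difference between sorts was not tested.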

How the data were processed

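ATAC-seq peak tables of 3 sorts, each with 4 libraries (2 WT and 2 SgshKO), were analysed as deposited. Per the file headers, the signal in each peak is a tag count that the authors scaled to a library total of 10000000. The Peak Score deposited for each peak was used only in 1 alternative. The submitters' processing notes name Bowtie2, HOMER and the build mm10, with no role. Their versions, the read shifting and the peak calling settings were not given in the sources used here. Dividing by the scaling factor gave whole reads for all peaks within 0.01. All columns of per-sample values matched a sample.

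Members are promoter-TSS peaks that overlap no peak of either other table by 1 bp or more. The members and gene lists were chosen with earlier results of these data known, and lists are described by counts only. In each table limma 3.58.1 (R 4.3.3; lmFit, eBayes with trend) was fitted to log2(tags + 1) over all peaks, two-sided, with Benjamini-Hochberg adjustment over the whole table and a threshold of 0.05. Fold changes on this scale understate the change of weak peaks. The alternatives tried were 2 other pseudocounts (0.5 and 5), a filter on the weakest 25% of peaks, 4 other scalings, edgeR 4.0.16 and DESeq2 1.42.0 on the recovered reads, a replicate block, leaving out each library, and other definitions of a member. On simulated reads, changes were placed only at peaks at or above the median signal of the table, with 1 spread for all peaks. There, 2-fold changes were recovered at 29% of such peaks for microglia, 41% for NeuN+ and 75% for Olig2+ nuclei, and 4-fold changes at 98%, 87% and 98%. Median WT signals were 29.5, 12.7 and 11.6 tags at members and 30.9, 12.4 and 15.4 over all peaks. Recovery at the weaker members was not simulated. The labels do not tie replicates to animals, so p-values measure only the spread between these libraries.

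Genes were named by a rule, with at most 1 peak per gene and table. It took the 6 members with the most WT signal and up to 10 at markers of the sorted cell type. The 5 largest increases and the 5 largest decreases were taken among called members that were apart between genotypes. Their mean over the 4 libraries had to reach the median of the members. An increase could thus qualify through its SgshKO libraries while weak in WT, such as Ces1a and Tarm1 (WT means of 4.5 and 10.7 tags). The rule also took the member with the smallest p of each other list, and 3 at genes with a shared promoter peak. Other named members, such as Map7d2, Ptprd and Galnt9, were chosen after their values were seen. Some members that the rule takes are not reported here. Promoter sequences are RefSeq windows (GRCm38.p6) of 300 bp, from 250 bp upstream of a start site.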

Additional observations from a re-analysis of the deposited data

How the results depend on the processing

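In microglia, 169 members were called as deposited (4.99%, against 7.37% of all peaks). With in-peak sum scaling, median of ratios, quantile normalization, edgeR and DESeq2, 12.1%, 9.09%, 8.35%, 10.9% and 2.77% of members passed. In the same order, 15.8%, 13%, 11.4%, 15.5% and 5.28% of all peaks passed, so the whole table moved and members stayed below it. The count was 409 with in-peak sum scaling, 308 with median of ratios, 283 with quantile normalization, 371 with edgeR and 94 with DESeq2. It was 45 and 274 at adjusted p thresholds of 0.01 and 0.1, 104 among members at least 500 bp from other tables' peaks, and 2 to 530 with 1 library left out. In NeuN+ nuclei, 740 were called, against 338 with quantile normalization, 67 with DESeq2, 342 at 0.01, 476 at 500 bp or more, 1315 with promoters taken as within 1000 bp of a start site, and 0 to 292 with 1 library left out (limma; 813 and 763 at an unadjusted p under 0.05 where the count was 0). In Olig2+ nuclei, 287 were called, against 52 with DESeq2, 190 among peaks of the highest Peak Score, 118 at 0.01, 147 at 500 bp or more, 449 within 1000 bp of a start site, and 95 to 280 with 1 library left out. With DESeq2, 2.61% of NeuN+ and 2.97% of Olig2+ members passed, beside 4.55% and 4.35% of all peaks. Quantile normalization gave 13.2% of NeuN+ members and 15.5% of all NeuN+ peaks. The cause of these shifts was not tested, apart from the counts with fewer or more peaks or another threshold, which follow from how they were built.

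Calls higher in SgshKO made up 60.4% in microglia as deposited, 27.4% with in-peak sum scaling and 93.6% with DESeq2. In NeuN+ nuclei they made up 19.5%, and 37.3% to 50.7% under in-peak sum, median of ratios, quantile, loess and edgeR. The members numbered 3390, 2567 and 1751 in microglia, NeuN+ and Olig2+ nuclei. They numbered 1807, 1460 and 665 with a gap of at least 500 bp, 1509, 1215 and 415 with 1000 bp, and 6242, 4763 and 2989 within 1000 bp of a start site.

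A replicate block gave 380, 858 and 304 calls, and kept all 118 calls at named peaks. Same-numbered libraries did not deviate together (correlations of 0.042, 0.0036 and 0.00069), so the numbers were not taken to pair them.

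The sign turned at 12 named peaks. Under quantile and loess normalization the log2 change was -0.17 and -0.14 at C1qa, -0.020 and -0.0011 at Tmem119, -0.38 and -0.45 at Gna15, -0.42 and -0.45 at Rassf5 (past the threshold under loess at both), -0.35 and -0.34 at Limk1, -0.29 and -0.27 at Cyth4, and 0.038 and 0.011 at Camk2b. Spi1 gave 0.055 with median of ratios, 0.039 with edgeR and 0.055 with DESeq2. With 1 library left out, the range was -0.20 to 0.010 at C1qb, -0.19 to 0.19 at Spi1, -0.33 to 0.027 at Inpp5d, -0.28 to 0.14 at Lyn, -0.21 to 0.79 at Limk1 and -0.16 to 0.0086 at Sox10. These signs turned without SgshKO replicate 2, at Spi1 and Lyn also without WT replicate 1, and at Limk1 without SgshKO replicate 1 instead. The cause was not tested. With 2 libraries a genotype, 2-fold changes on simulated reads were recovered at 29%, 41% and 75% of peaks in microglia, NeuN+ and Olig2+ nuclei. Those peaks had at least the median signal of their table. Smaller changes and weaker peaks were not simulated.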

Other observations

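Member peaks also lay at gene families not described above. From each family the member with the smallest p is given, so its p is the lowest of several. In microglia, Zap70, a kinase of lymphocyte receptors, rose from 1.73 and 3.39 tags in WT to 14.7 and 14.85 in SgshKO (log2 change 2.19, adjusted p = 0.0072). It was the called member among 6 at lymphocyte markers, whose summed tags overlapped between genotypes (423 and 362 in WT, 549.75 and 356 in SgshKO). Kcnn4, a calcium-activated potassium channel of immune cells, rose from 3.46 and 3.39 to 21.6 and 16.7 (2.18, adjusted p = 0.0051). Slc6a19, an amino acid transporter of gut and kidney, rose from 19.0 and 16.9 to 66.7 and 52.9 (1.67, adjusted p = 0.0049), and Zfp78 from 76.9 and 72.9 to 181 and 284 (1.59, adjusted p = 0.00057). The Zfp78 peak lay 4 bp from a peak of another table. Hox genes, the body-axis factors, had 20 of 21 promoter peaks as members in microglia, of which 0 passed in limma and 2 had an unadjusted p under 0.05.

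In NeuN+ nuclei, 2 members at marker genes of other cell types rose from low levels. St18, an oligodendrocyte factor, went from 2.83 and 2.26 tags to 9.07 and 9.52 (1.54, adjusted p = 0.0049), and Cd209a, a lectin of dendritic cells, from 2.83 and 1.13 to 12.6 and 10.2 (2.11, adjusted p = 0.00087). Dlx5, a factor of GABAergic interneurons, fell from 22.1 and 19.2 to 9.77 and 9.52 (-1.02, adjusted p = 0.0086). In Olig2+ nuclei, the snoRNA gene Snora36b fell from 52.9 and 49.1 to 17.2 and 19.3 (-1.43, adjusted p = 1e-05). Kcne4, a potassium channel subunit, fell from 9.85 and 7.16 to 2.46 and 1.99 (-1.55, adjusted p = 0.0061), and Gabrr2, a GABA receptor subunit, from 29.05 and 24.0 to 14.1 and 16.6 (-0.75, adjusted p = 0.031).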
